A study of Mus musculus with 2 samples.

Results

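Kinesins are the motor proteins that walk along microtubules, and the mouse genes that encode them, together with the light chains and the kinesin-2 accessory subunit, were examined in the cerebrum of the laggard (lag) mutant, which carries a lesion in 1 of them, Kif14. The members were taken by symbol, as Kif genes, Kifc genes, Kifap3 and Klc genes, from probe sets that the platform annotation pairs with 1 gene alone. This gave 44 genes and 111 probe sets, of 18194 genes measured in all. 1 probe set shared by Kif27 and another gene was left out, and Klc2 had no probe set of its own.

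RNA came from the cerebrum of 1 mutant sample and 1 wild-type sample, both at postnatal day 14 (P14), and each was hybridised to 1 Affymetrix mouse array. The lag allele arose spontaneously on a mixed strain background and was crossed to C57BL/6J. It alters a splice acceptor site of Kif14 in every cell from conception, with no Cre or promoter to limit it. The labels give the genotypes as mutant and wild type with no treatment, and state neither the sex nor the number of mice behind each sample. With 1 array per genotype no difference below has a replicate check, and no test was possible. Every fold and count describes these 2 arrays.

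Kinesins share a motor domain that turns ATP hydrolysis into movement, and their tails decide the cargo. One set acts in dividing cells, where it builds the spindle, aligns chromosomes and forms the midbody through which daughter cells separate. Another set carries vesicles, mitochondria, RNA granules and receptors along axons and dendrites, and is known for its abundance in neurons. Kif14 belongs with the mitotic motors and acts at the midbody with citron kinase. The 44 members were therefore described as 13 mitotic genes, 21 transport genes and 10 others, which are ciliary, signalling or microtubule-depolymerising motors or have no settled role.

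The mitotic and the transport kinesins were also compared in the sequence around their start sites. Promoters of genes used in G2 and mitosis often hold the cell cycle homology region (CHR, TTTGAA) and the CCAAT box that NF-Y binds, so both were searched on both strands in the window from 150 bases before to 20 bases after the annotated start. In RefSeq (GRCm38.p6), windows were listed for 12 of the 13 mitotic genes. A CHR lay in 8 of these 12 windows, a CCAAT box in 8, and both in 5 (41.7%). Of 17 windows of 15 transport genes, 1 held a CHR (5.88%), CCAAT boxes lay in those of 4 genes, and none held both. Over 32851 windows of all genes, 10% held a CHR, 26.3% a CCAAT box and 2.68% both. 6 windows are shown, those of Kif14 itself, of the 3 mitotic members with a window whose mutant signal was 1.5-fold or more above wild-type (Kif22, Kif23, Kif18b), and of 2 further members for contrast (Kif4 and Kif11). Each is 170 bases, written in the gene's direction, with every CHR and CCAAT box in capitals (TTCAAA and ATTGG are the same motifs on the opposite strand).
Kif14, chr1:136467698-136467867 (+ strand): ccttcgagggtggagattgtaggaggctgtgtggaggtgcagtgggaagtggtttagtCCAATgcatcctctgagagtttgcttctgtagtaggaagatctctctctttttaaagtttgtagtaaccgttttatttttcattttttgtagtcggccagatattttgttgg
Kif22, chr7:127042401-127042570 (- strand): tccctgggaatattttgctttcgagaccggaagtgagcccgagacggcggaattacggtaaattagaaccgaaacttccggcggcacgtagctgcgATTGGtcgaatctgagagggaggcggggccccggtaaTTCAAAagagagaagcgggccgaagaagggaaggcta
Kif23, chr9:61946780-61946949 (- strand): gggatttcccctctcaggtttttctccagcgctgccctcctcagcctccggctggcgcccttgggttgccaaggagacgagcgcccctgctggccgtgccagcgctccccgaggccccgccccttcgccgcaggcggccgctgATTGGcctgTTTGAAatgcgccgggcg
Kif18b, chr11:102925105-102925274 (- strand): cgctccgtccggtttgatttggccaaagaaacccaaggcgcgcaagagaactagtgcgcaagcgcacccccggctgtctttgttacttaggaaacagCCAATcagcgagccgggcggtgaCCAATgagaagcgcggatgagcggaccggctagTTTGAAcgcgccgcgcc
Kif11, chr19:37376232-37376401 (+ strand): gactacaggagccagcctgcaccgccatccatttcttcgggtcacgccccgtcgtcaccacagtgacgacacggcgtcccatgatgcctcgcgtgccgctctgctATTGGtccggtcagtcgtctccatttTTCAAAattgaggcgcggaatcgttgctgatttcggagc
Kif4, chrX:100625915-100626084 (+ strand): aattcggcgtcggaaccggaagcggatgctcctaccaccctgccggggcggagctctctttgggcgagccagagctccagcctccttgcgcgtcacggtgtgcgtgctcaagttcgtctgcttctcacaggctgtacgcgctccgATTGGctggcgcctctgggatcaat
The windows of Kif22, Kif23, Kif18b and Kif11 hold both motifs, whereas those of Kif14 and Kif4 hold the CCAAT box alone. Among the windows shown, both motifs were present in 3 genes picked for their higher signals in the mutant and also in Kif11, which was not higher. Because of that choice, the shown windows cannot link motif to direction. Kif4 was higher without a CHR in the window. Kifc1, whose window is not shown, also held both motifs and was 1.13-fold higher. Other windows not shown lacked the pair in genes that were higher. Kif2c (1.31-fold) and Kif20b (1.06-fold) held a CHR alone, and Kif18a (1.01-fold) held neither motif. A match describes the letters in this window and says nothing on whether a factor binds there.

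Values are MAS5 signals, linear intensities that had been scaled so that both arrays had a trimmed mean of 500. A gene was read from its brightest probe set, and differences are given as folds or as log2 ratios of mutant over wild-type, so that positive values are higher in the mutant. Signals below 49.1 in the mutant and 51.4 in wild-type were treated as background. These are the 95th percentiles of 150 probe sets for receptors, keratin-associated proteins and other families not transcribed in brain. When 1 array lay under its level, the fold is a lower bound against that level. Of the 44 kinesin genes, 39 were above background on at least 1 array and 35 on both, 4 were under it in wild-type alone, and 5 were under it on both arrays.

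Across the 39 genes, 25 were higher and 13 lower in the mutant, 1 was level, and the median log2 ratio was 0.03, beside a median of 0.01 over all 13841 genes above background, of which 51.6% were higher and 47.8% lower. None was at least 2-fold lower, against 1.03% of all genes, and 1 (Kif23) was at least 2-fold higher, against 0.686%. At the lower limit of 1.5-fold, 1 kinesin was lower (Kif26a), where 3.55% of all genes were. At the same limit 4 were higher, Kif18b, Kif20a, Kif22 and Kif23, where 4.12% of all genes were. All 4 belonged to the mitotic group, but Kif23 and Kif20a passed the background level through the mutant array alone, where they were high. Kif22 had a log2 ratio of 0.18 with unique probe sets only. Of the 8 mitotic kinesins above background on both arrays, 2 were at least 1.5-fold higher.

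**Figure D1:**
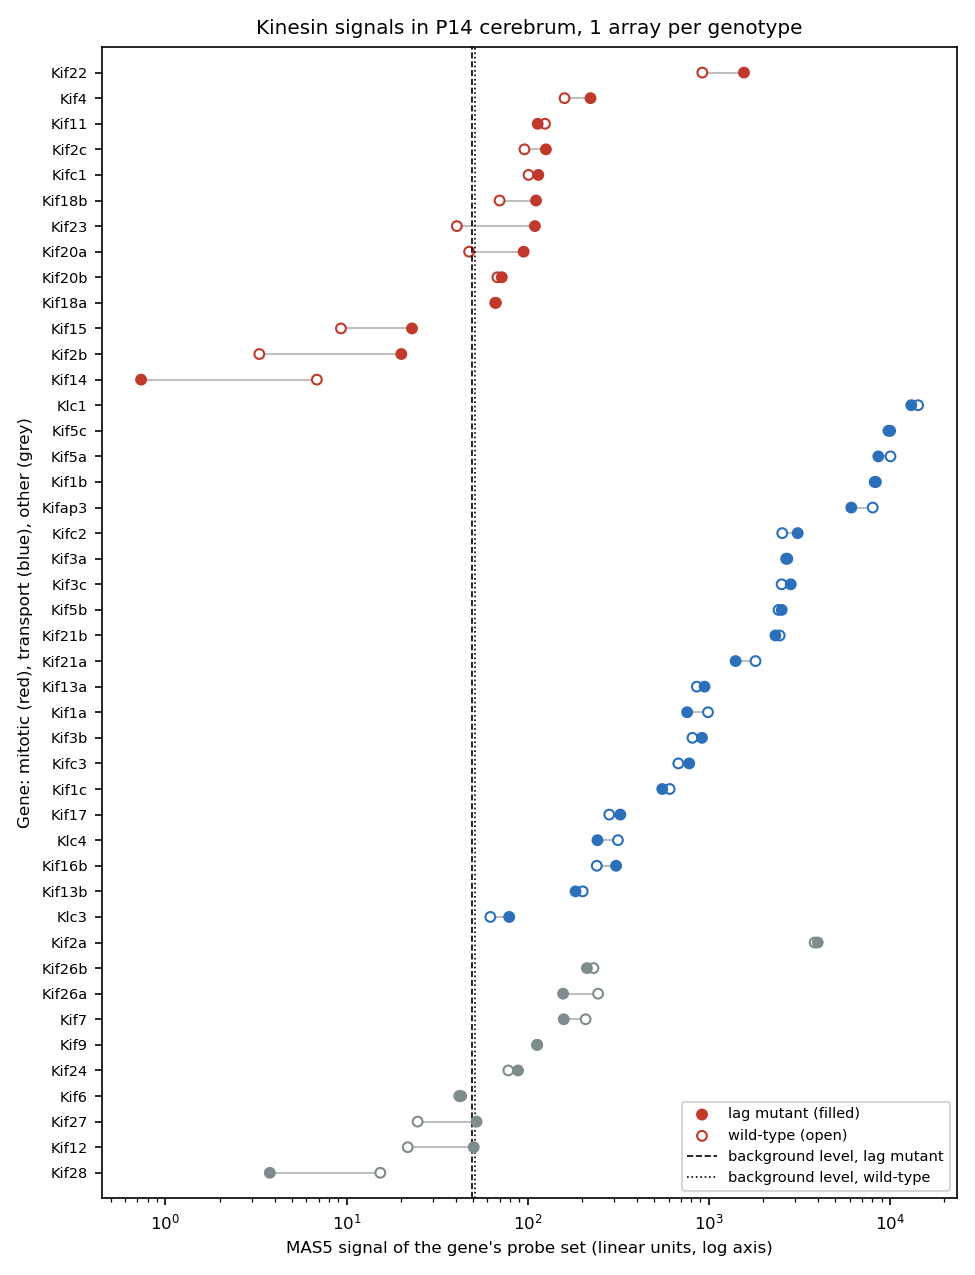
MAS5 signal (linear units on a log axis) of the probe set that stands for each of the 44 kinesin genes, with filled points for the lag mutant, open points for wild-type and 1 array per genotype. Red rows are mitotic, blue rows transport and grey rows other kinesins, each sorted by mean signal, and vertical lines mark the background levels of 49.1 (lag mutant) and 51.4 (wild-type). Kif22, Kif18b, Kif23 and Kif20a in the mitotic rows have filled points well to the right of open ones, while the paired points of the transport kinesins lie closer together.

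The plot of signals shows every gene on both arrays. Kif14, the gene hit by the mutation, had 1 probe set, with a signal of 0.733 in the mutant and 6.85 in wild-type. Both lie far under the background level, so no fold is given, and the probe set cannot check the genotype labels. Kif15, a second motor that can hold spindle poles apart, was likewise under background, with 23.0 in the mutant and 9.31 in wild-type. So was the mitotic depolymerase Kif2b, with 20.1 in the mutant and 3.30 in wild-type. These 3 mitotic kinesins thus gave no signal above background in whole cerebrum on either array.

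The remaining 10 mitotic kinesins had higher signals in the mutant in 9 cases and a lower one in 1, with a median log2 ratio of 0.43. In bulk cerebrum, more or fewer cells of a type and more or less RNA per cell cannot be told apart. Kif23 encodes the motor subunit of centralspindlin, which bundles microtubules in the midzone and midbody. Its signal was 109.6 in the mutant and 40.6 in wild-type, at least 2.13-fold higher. Its other 2 probe sets were under background on both arrays, with 15.6 and 17.5 in the mutant and 20.1 and 14.8 in wild-type, so the largest ratio among kinesins rests on 1 probe set of 3. Kif20a, the motor that moves the chromosomal passenger complex to the midzone, had 95.004 in the mutant and 47.5 in wild-type, at least 1.85-fold higher, on a single probe set. Both genes were above background in the mutant alone, and so were kept only because their mutant signals were the higher ones.

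Kif22, a chromokinesin that pushes chromosome arms towards the spindle equator, had 1565 in the mutant and 922 in wild-type (1.70-fold higher, log2 ratio 0.76). That probe set is of the x type, in which some probes can match unrelated transcripts. The other 2 probe sets of Kif22 were higher by less, with 111 in the mutant against 94.8 in wild-type (1.17-fold) and 63.8 in the mutant against 56.4 in wild-type (1.13-fold). With probe sets of the x and s types left out, the log2 ratio of Kif22 was 0.18, and averaged over its 3 probe sets it was 0.39, so its place past 1.5-fold depends on the brightest probe set. Kif18b, which shortens astral microtubules, had 111 in the mutant and 70.0 in wild-type (1.59-fold higher) on 1 probe set.

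Smaller differences in the same direction were measured for further spindle motors. Kif4, which compacts chromosomes and sets the length of the midzone, had 222 in the mutant and 160 in wild-type (1.39-fold higher). Kif2c, a depolymerase at centromeres, had 126 in the mutant and 96.0 in wild-type (1.31-fold higher), and a second probe set of it was also higher, by 1.25-fold. Kifc1, a minus-end motor that gathers spindle poles, had 115 in the mutant and 101 in wild-type. Its probe set is of the s type, shared by related transcripts. The 2 members nearest to equal signals were Kif20b, which is needed for the final cut between daughter cells, with 72.0 in the mutant and 68.1 in wild-type, and Kif18a, which dampens chromosome oscillation, with 66.8 in the mutant and 66.2 in wild-type. Kif11, the motor that separates spindle poles, was the 1 mitotic kinesin with a lower signal, 114 in the mutant and 125 in wild-type, and a second probe set gave 115 in the mutant and 123 in wild-type. Signals were thus higher in 9 of 10 measured mitotic kinesins, where 51.6% of all genes were higher, and were close to the background level in most of them. For Kif23 and Kif20a, above background in the mutant alone, that direction was fixed by the background rule, and Kif18a and Kif20b were nearly level.

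Because 2 of these ratios are lower bounds, the mitotic kinesins above background on both arrays were also read alone. Of these 8, 7 were higher, with a median log2 ratio of 0.29 and a range of -0.13 to 0.76, and 2 were at least 1.5-fold higher. Among 8759 other genes in the same range of mean signal and above background on both arrays, 51.3% were higher in the mutant and 4.59% were at least 1.5-fold higher. That range runs from 66.5 to 1243, and its top is set by Kif22 alone. The next brightest, Kif4, had 222 in the mutant and 160 in wild-type. These shares are therefore not matched to the dimmer mitotic kinesins. By probe set, 15 of the 26 that represent mitotic kinesins were above background, 12 of them on both arrays. Of the 15, 12 were higher, 2 lower and 1 without a difference. Among them, 1 probe set each of Kif23, Kif20a and Kif2c passed through the mutant array alone. The background rule kept those from being lower. 7 of the 13 genes had 1 probe set only, so most members have no second reading on the same array.

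**Figure D2:**
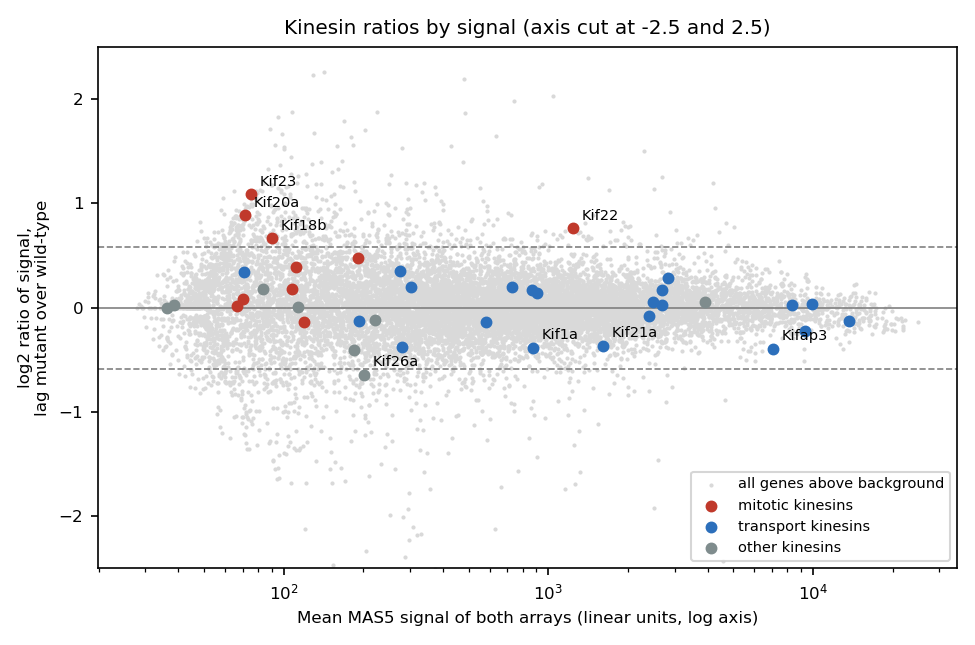
Log2 of mutant over wild-type signal against the mean signal of both arrays (linear units on a log axis) for 13841 genes above background (grey) and for mitotic (red), transport (blue) and other (dark grey) kinesins. Dashed lines mark 1.5-fold either way, and 18 genes lie beyond the plotted range of 2.5. Of the 4 kinesins above the upper line, 3 lie among dim genes, whose ratios spread widely, and Kif22 lies among brighter ones.

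The plot of ratio against signal places these values within the scatter of the arrays. Over all genes the SD of the log2 ratio across genes was 0.456 in the dimmest of 5 equal bins of mean signal and 0.264 in the brightest. Most mitotic kinesins lay toward the dim end of the plot, where ratios spread more widely, and most transport kinesins further to the right.

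The 21 transport kinesins were above background on both arrays without exception. Of these, 12 were higher and 9 lower in the mutant, the median log2 ratio was 0.02, and none reached 1.5-fold in either direction. Among 12462 other genes in the same range of signal, 51.4% were higher, 3.80% were 1.5-fold or more higher and 3.33% as much lower, so that 0 of 21 lies near the share over those genes. Their ratios ran from -0.39 (Kifap3) to 0.35 (Kif16b), with an SD across genes of 0.24, beside 0.36 over those other genes. Those other genes span mean signals from 70.6 to 13730 and so include many dim ones. Over all genes the SD was 0.264 in the brightest of the 5 bins of signal and 0.275 in the next. The median of the mitotic kinesins was 0.41 above that of the transport kinesins on the log2 scale, a value that includes Kif23 and Kif20a, which passed the background level through the mutant array alone. Over genes above background on both arrays the difference was 0.26, and with probe sets averaged it was 0.24. The medians are set side by side without a test.

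Kinesin-1, the main anterograde motor of axons, is built of Kif5 heavy chains and Klc light chains. Kif5c, a neuronal heavy chain, had 10035 in the mutant and 9822 in wild-type. Kif5a, the neuronal heavy chain that also carries neurofilaments, had 8637 in the mutant and 10079 in wild-type (1.17-fold lower). A second, dim probe set, of the s type shared by related transcripts, instead gave 220.4 in the mutant and 123 in wild-type (1.79-fold higher). Kif5b, the heavy chain made in most tissues, had 2529 in the mutant and 2428 in wild-type, and all 6 of its probe sets were higher, by up to 1.62-fold (2191 in the mutant and 1351 in wild-type). The heavy chains thus had near-equal signals on their brightest probe sets, and the readings within Kif5a and Kif5b differed by more than the readings between the genes.

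Of the light chains, which link cargo to the heavy chains, Klc1 had 13129 in the mutant and 14331 in wild-type (1.09-fold lower). A second probe set of Klc1 had 2723 in the mutant and 1872 in wild-type (1.45-fold higher), so its direction depends on the probe set. Klc3 had 79.1 in the mutant and 62.2 in wild-type (1.27-fold higher). Klc4 had 243 in the mutant and 315 in wild-type (1.30-fold lower). In all, 3 of the 6 kinesin-1 genes were higher and 3 lower.

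Kinesin-2 is a heterotrimer of Kif3a with Kif3b or Kif3c and the accessory subunit Kifap3, and moves cargo both along axons and up cilia. Kifap3 had 6123 in the mutant and 8048 in wild-type (1.31-fold lower), and its other probe set agreed closely, with 1672 in the mutant and 2187 in wild-type (1.31-fold lower). This was the lowest ratio among transport kinesins. The motor subunits that it binds did not share the direction, with Kif3a at 2716 in the mutant and 2675 in wild-type, and Kif3c at 2837 in the mutant and 2526 in wild-type. Kif3b had 917 in the mutant and 813 in wild-type, with 3 probe sets higher and 1 lower by 1.94-fold (131 in the mutant and 253 in wild-type). Kif17, a homodimer that carries NMDA receptor vesicles in dendrites, had 325 in the mutant and 282 in wild-type, and each of its 3 probe sets was higher. The dimmest, at least 1.68-fold higher, was above background in the mutant alone, so the background rule fixed its direction.

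Kinesin-3 motors carry synaptic vesicle precursors, mitochondria and endosomes. Kif1b was examined in detail because in zebrafish it is needed to bring myelin mRNA into oligodendrocyte processes, and because its probe sets disagreed. The brightest had 8378 in the mutant and 8245 in wild-type, and the next 4916 in the mutant and 4853 in wild-type. A further pair were higher too, by 1.03-fold and 1.18-fold. The 3 dimmest were lower, with 149.8 in the mutant and 221 in wild-type (1.47-fold), 59.0 in the mutant and 101 in wild-type (1.71-fold), and 39.6 in the mutant and 64.9 in wild-type (at least 1.32-fold). Kif1b therefore had near-equal signals on its 3 brightest probe sets, and the averaged log2 ratio over its 7 probe sets was -0.20. Which of the Kif1b transcripts each probe set reads is not given in the annotation used here.

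Kif1a, the neuronal motor for synaptic vesicle precursors, had 759.6 in the mutant and 991 in wild-type (1.30-fold lower), and its other probe set was lower as well. Kif13a, which moves recycling endosomes, had 948 in the mutant and 859 in wild-type, and all 5 of its probe sets were higher, 2 of them past 1.5-fold (129 in the mutant against 83.3 in wild-type, and 88.6 in the mutant against 54.2 in wild-type). Those 2 are of the s and x types, which can also match other transcripts. Kif16b, a motor of early endosomes, had 308 in the mutant and 241 in wild-type (1.28-fold higher), while a second probe set was slightly lower, with 133 in the mutant and 142 in wild-type. Kif1c and Kif13b were each 1.10-fold lower. Within kinesin-3, 3 genes were higher and 3 lower.

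The kinesin-4 motors Kif21a and Kif21b restrain microtubule growth in neurons. Kif21a had 1407 in the mutant and 1812 in wild-type (1.29-fold lower) and its second probe set 1186 in the mutant and 1326 in wild-type. Kif21b had 2334 in the mutant and 2465 in wild-type (1.06-fold lower). It is the kinesin that lies nearest to Kif14 on chromosome 1, within 10 Mb and with 5 protein-coding genes in between, and its signals were nearly level. The minus-end motors Kifc2, which is neuronal, and Kifc3, which acts at cell junctions, were both higher, with 3099 in the mutant and 2546 in wild-type for Kifc2 and 780.1 in the mutant and 679 in wild-type for Kifc3.

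**Figure D3:**
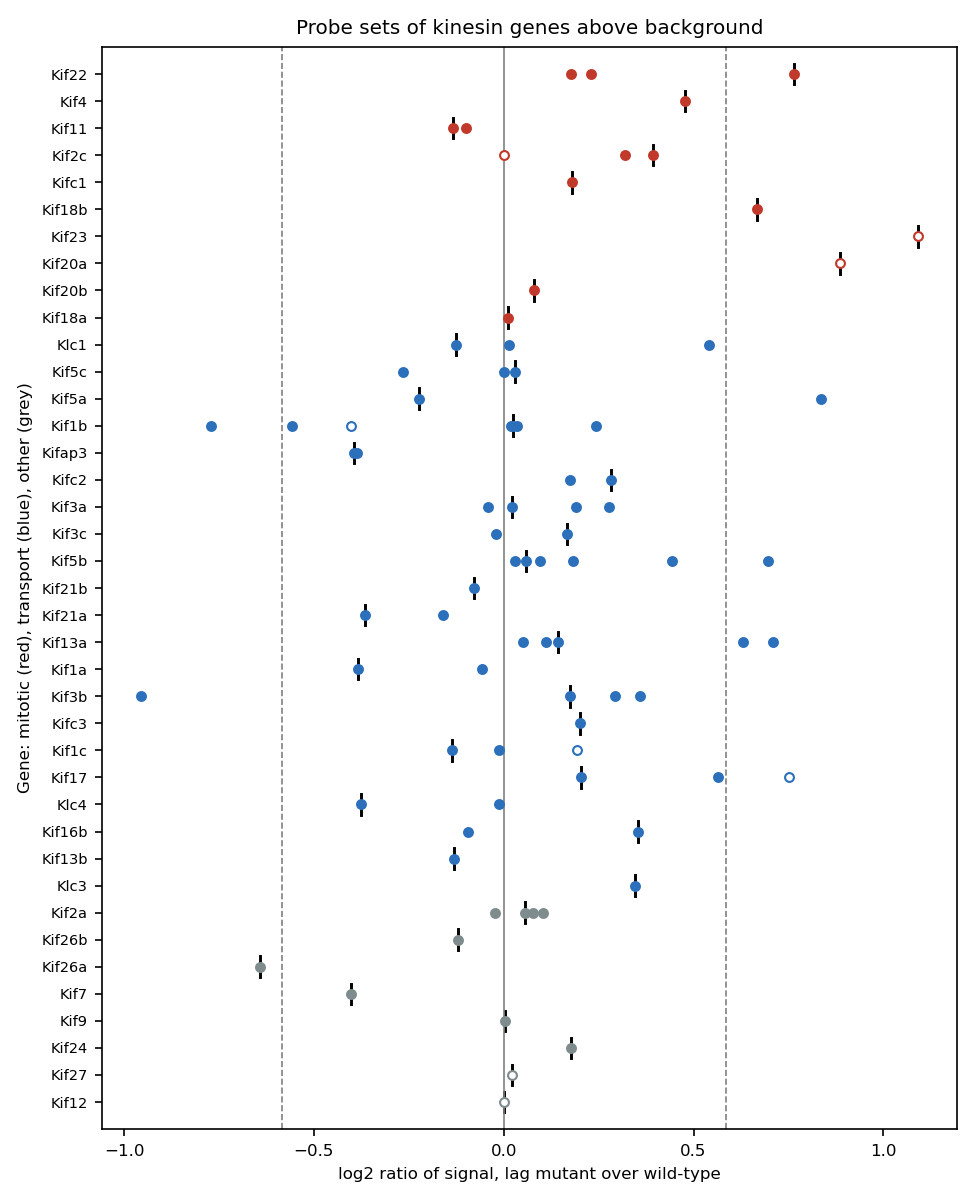
Log2 of mutant over wild-type signal for each probe set of a kinesin gene above background on at least 1 array, with a black tick on the probe set that stands for the gene and open points for lower bounds. Rows are mitotic (red), transport (blue) and other (grey) kinesins in order of signal, and dashed lines mark 1.5-fold either way. Kif5a, Kif3b and Kif1b have points on both sides of 0 with at least 1 past 1.5-fold.

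The plot of probe sets shows how far readings of 1 gene lay apart. Among the 21 kinesin genes that had several measured probe sets, Kif1b, Kif3b and Kif5a had points on both sides of 0 with at least 1 past 1.5-fold. The SD across the probe sets of 1 gene had a median of 0.23 on the log2 scale for kinesins and 0.20 over 6554 genes, and the widest among kinesins was 0.75 (Kif5a). The median spread between readings of 1 gene is thus close to the SD of 0.24 across the transport kinesins themselves. By probe set, 58 were above background in this group, 55 of them on both arrays. Of the 58, 36 were higher and 22 lower, with 5 at least 1.5-fold higher and 2 at least 1.5-fold lower. The 5 include the dimmest Kif17 probe set, kept through the mutant array alone. Read from their brightest probe sets, 4.12% of all genes were at least 1.5-fold higher and 3.55% as much lower.

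The third group holds motors of cilia and of signalling. Kif26a, an atypical kinesin that has lost ATPase activity and dampens growth factor signalling, had 157 in the mutant and 245 in wild-type (1.56-fold lower), the 1 kinesin past that limit in this direction, on a single probe set. Kif7, which sits at the tip of primary cilia and regulates Hedgehog signalling, had 158 in the mutant and 209 in wild-type (1.32-fold lower). Kif26b, the close relative of Kif26a, had 212 in the mutant and 231 in wild-type (1.09-fold lower). Kif2a, a depolymerase that prunes axon branches, had 3996 in the mutant and 3842 in wild-type, and 3 of its 4 measured probe sets were higher. Kif24, which removes microtubules from the mother centriole, had 88.5 in the mutant and 78.2 in wild-type, and Kif9, a motor of motile cilia, 113 on both arrays.

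Kif27, another motor of motile cilia, had 52.2 in the mutant and 24.7 in wild-type. Kif12 had 50.4 in the mutant and 21.8 in wild-type. Both were just above the mutant's background level and under that of wild-type, so their bounds are 1.02-fold for Kif27 and no difference for Kif12. Kif6, with 42.9 in the mutant and 41.9 in wild-type, and Kif28, with 3.77 in the mutant and 15.4 in wild-type, were under background on both arrays. Markers of ependymal and other ciliated cells were 6 of 8 higher, with a median log2 ratio of 0.12 and summed signals of 1509.7 in the mutant and 1316 in wild-type, and their part in these values was not tested.

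The genes that work with the 2 main groups of kinesins had medians near 0. Of 24 adaptors that tie kinesins to cargo or tracks, 18 were lower and 6 higher, with a median log2 ratio of -0.05 and none past 1.5-fold. Over all genes above background, 47.8% were lower, 3.55% were at least 1.5-fold lower and 4.12% as much higher. When probe sets were averaged, the split of the adaptors was 13 lower and 11 higher. The brightest of them were Fez1, an adaptor of kinesin-1, with 6379.7 in the mutant and 7061 in wild-type, Clstn1, which binds light chains, with 6021 in the mutant and 6199 in wild-type, and Kidins220, with 5160.3 in the mutant and 5536 in wild-type. Ppfia1, a scaffold that binds Kif1a, had the lowest ratio, with 241 in the mutant and 341 in wild-type (1.42-fold lower).

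Of 14 spindle and midbody partners, 7 were higher and 7 lower, with a median of 0.01. After quantile normalization 10 were higher and 4 lower. Cit, the citron kinase that Kif14 brings to the midbody, had 1121 in the mutant and 1049 in wild-type. Racgap1, the partner of Kif23 in centralspindlin, had 248 in the mutant and 249.7 in wild-type, and Prc1, which recruits Kif4 and Kif14 to the midzone, 269 in the mutant and 264 in wild-type. Incenp, the scaffold of the passenger complex that Kif20a moves, had 633 in the mutant and 749.6 in wild-type (1.18-fold lower). Plk1, a mitotic kinase that also docks on Kif20a, had 97.1 in the mutant and 146 in wild-type (1.502-fold lower), and Ect2, which binds centralspindlin, 212 in the mutant and 168 in wild-type (1.26-fold higher). Racgap1 and Incenp, the complex partners of Kif23 and Kif20a, thus had near-equal or lower signals, whereas Ect2 was higher. Kif23 and Kif20a were higher too, but both were above background in the mutant alone, so the background rule fixed their direction. Motors and partners therefore cannot be contrasted by direction here.

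Of 12 measured genes of dividing cells, 10 were lower and 2 higher, with a median log2 ratio of -0.08 (8 lower and 4 higher after quantile normalization). Over all genes above background, 47.8% were lower. Pcna, the sliding clamp of DNA replication, had 3868 in the mutant and 3903 in wild-type. Rrm2 had 656 in the mutant and 766 in wild-type, and Cdc20, which activates the anaphase-promoting complex, 522 in the mutant and 545 in wild-type. Mki67, the proliferation antigen, had 376 in the mutant and 441 in wild-type, and Bub1, a checkpoint kinase, 66.1 in the mutant and 102 in wild-type (1.55-fold lower). The higher ones were Ccnb2, a mitotic cyclin, with 243 in the mutant and 187 in wild-type (1.30-fold higher), and Cdk1, the kinase that it activates, with 289.7 in the mutant and 281 in wild-type (1.03-fold higher). The median of the mitotic kinesins was above 0 and that of these other genes of division below it, and the difference between the lists was not tested.

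**Figure D4:**
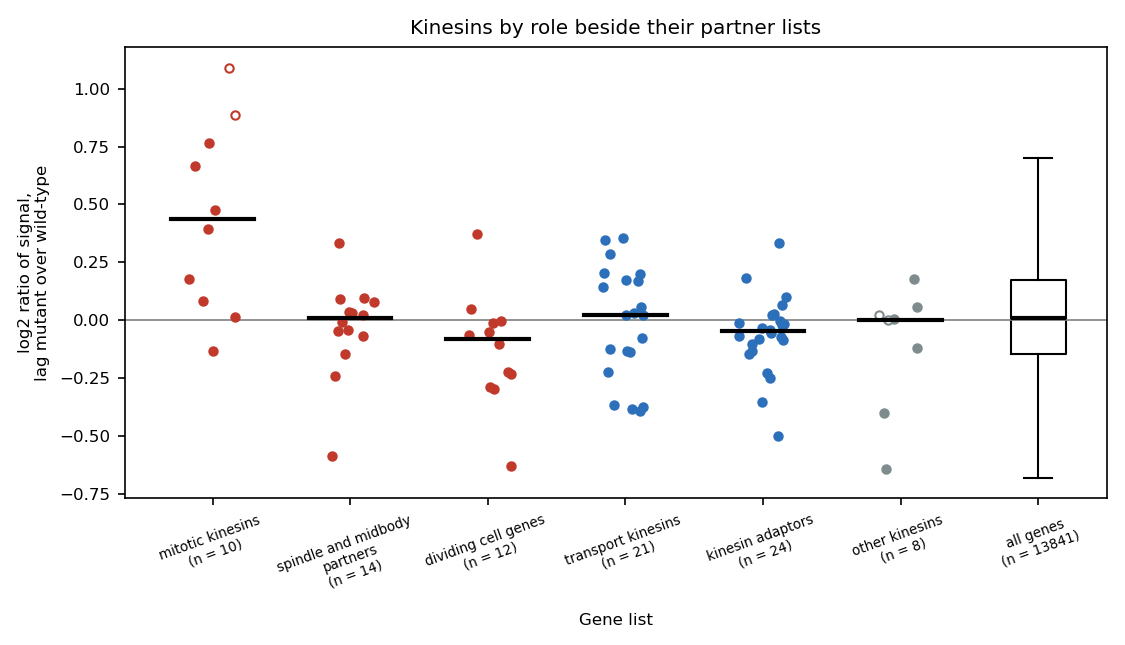
Log2 of mutant over wild-type signal for each gene of the kinesin groups and of the partner lists, with the median as a black bar and open points for lower bounds. The box on the right gives the quartiles and median of all 13841 genes and its whiskers the central 95 percent. The mitotic kinesins have a median of 0.43, and the spindle and midbody partners, dividing cell genes, transport kinesins, adaptors and other kinesins lie between -0.08 and 0.02.

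The plot of gene lists sets these groups side by side. The tissue and its cells were read from marker genes on the same arrays. The 5 measured forebrain markers (Emx1, Emx2, Tbr1, Neurod6 and Lhx2) were above background on both arrays, with 4 higher in the mutant, a median log2 ratio of 0.45 and summed signals of 8448 in the mutant and 6263 in wild-type. This was the highest median among the marker lists, with ratios from -0.27 (Emx2) to 0.72 (Tbr1). Neuronal markers were nearly level, with 4 of 7 higher, a median log2 ratio of 0.06 and summed signals of 80151 in the mutant and 79964 in wild-type, and the transport kinesins, many of them neuronal, had a median of 0.02. The 5 measured markers of myelinating oligodendrocytes were all at least 2-fold lower, with summed signals of 1969 in the mutant and 29969.5 in wild-type, and Mog and Mobp were under background in the mutant. Endothelial markers were lower in 5 of 6 and microglial markers higher in 5 of 6, with medians of -0.34 and 0.29. Astrocyte markers were lower in 4 of 6, with a median of -0.14 and ratios from -0.29 (Aqp4) to 0.81 (Gfap). The part of these cell types in the kinesin values was not tested.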

How the data were processed

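RNA of P14 cerebrum, 1 lag mutant and 1 wild-type sample, was read on 1 array each. The authors calculated the deposited linear intensity of each probe set with MAS5, default settings and global scaling, which the submitters' processing notes also name. Detection calls were not used here. Median signals were 98.3 in the mutant and 105 in wild-type. The number of arrays limits the precision.

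Of 45101 probe sets, the 34958 paired with 1 gene were used. Of these, 34754 were matched by gene identifier to RefSeq (GRCm38.p6), whose symbols were then used. The probe set of highest mean signal stood for a gene. Signals under the 95th percentile of the background families were raised to it, and a bound that would cross equality was set to no difference. Log2 ratios were computed in Python 3.11.15 with numpy 2.4.6, pandas 2.3.3 and scipy 1.17.1, and the scripts were tested on simulated data. Named genes were Kif14, Kif1b, members past 1.5-fold, the brightest transport (6) and mitotic (4) kinesins, members whose probe sets disagreed, those under background, neighbours of Kif14 within 10 Mb, and the 3 brightest genes of each partner list. The remaining members, and Ppfia1, Racgap1, Plk1, Ect2, Mki67, Bub1, Ccnb2 and Cdk1, were added once their values had been seen. The members, role groups and lists were chosen with earlier results of these data known.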

Additional observations from a re-analysis of the deposited data

How the results depend on the processing

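No paired analysis was possible because 1 array was read per genotype. The 8 alternative settings gave 289 values for the 39 kinesin genes. Of these, 279 moved by no more than the SD across all genes of like signal (0.26 to 0.46), and 10 by more. That SD is larger than most of the kinesin ratios, and changes of the background level leave bright genes as they were. The count is therefore a weak check, and changes of sign can fall within it. The median of the mitotic kinesins ran from 0.29 (above background on both arrays) to 0.62 (background at the 99th percentile, which left 2 genes), and that of the transport kinesins from 0.02 to 0.07. The difference between these medians ran from 0.24 (probe sets averaged) to 0.60 (99th percentile). The count of kinesins at least 2-fold lower was 0, became 2 with no background level (Kif14 and Kif28, both dim) and was 1 at 1.5-fold. The count at least 2-fold higher was 1, became 5 with no background level, was 4 at 1.5-fold, and was 0 with the 99th percentile, with log2(signal + 50) or when both arrays had to be above background. With probe sets averaged, Kif5a (0.31), Klc1 (0.14), Kif1b (-0.20), Kif3b (-0.03), Kif5c (-0.08) and Kif1c (0.01) took the opposite sign, as did Kif16b (-0.09) with unique probe sets. Dim signals limit most mitotic kinesins, 2 of which rest on a bound.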
